A study of Mus musculus with 4 samples.

Results

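The 10 genes described here encode the subunits of the mouse condensin complexes and the type II topoisomerases: Smc2, Smc4, Ncaph, Ncapg, Ncapd2, Ncaph2, Ncapg2, Ncapd3, Top2a and Top2b. They were taken by gene symbol, and each of the 10 was found once among the 20421 genes of the table. RNA sequencing was done on total RNA of brains from C57BL/6 mouse embryos at embryonic day 15, labelled either wild type (WT) or FOXM1f/+;Nestin-Cre. Nestin-Cre is a Cre recombinase driver of neural progenitors, and FOXM1 is a forkhead transcription factor of the later cell cycle. The title of the series names the human FOXM1 gene, and the labels do not say how the allele was built. The design text speaks of triplicates, GEO lists 4 samples, 2 per genotype, and the table used here has a single count column for each genotype. These do not match, so it is not known which sample, or how many embryos, a column stands for. One WT sample is titled with nestin and the other with foxm1, so the control may carry one of those alleles. Below, the column of FOXM1f/+;Nestin-Cre is the transgenic library and that of WT the WT library, and each difference is one between 2 columns, with no replicate columns to check it.

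Condensins are ring-shaped motors that fold chromatin into loops and compact chromosomes for mitosis. Smc2 and Smc4 form the arms of the ring in both complexes, a kleisin closes it, and a pair of HEAT-repeat subunits binds DNA and the kleisin. In condensin I these are Ncaph (the kleisin), Ncapg and Ncapd2, and in condensin II they are Ncaph2 (the kleisin), Ncapg2 and Ncapd3. Condensin II is in the nucleus through interphase, while condensin I reaches the chromosomes after the nuclear envelope breaks down. Topoisomerase II passes one DNA duplex through another and so unlinks the sister chromatids that condensin compacts. Top2a is the form of dividing cells, and Top2b is kept in postmitotic neurons, where it acts in the transcription of long genes. Inherited defects of several condensin subunits reduce brain size, so these genes are of interest where neural progenitors divide.

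Promoter sequences are shown first, since FOXM1 is recruited to many of its late cell cycle targets through the cell cycle genes homology region (CHR), often with CCAAT boxes nearby. Windows from 250 bases before to 50 bases after a RefSeq transcript start (GRCm38.p6) were found for 9 of the 10 genes, with 2 windows for Ncapd3 and none for Smc4. The CHR was searched as TTTGAA or TTCGAA and the CCAAT box as CCAAT, each on both strands. In the sequences below, written 5′ to 3′ along the gene's strand, capitals of 6 letters mark a CHR match and capitals of 5 letters a CCAAT match. Top2a has the densest set and is shown over the 250 bases before its start. Ncapg and Ncaph2 have a CHR match close to the start, Ncaph and Top2b have none in the window, and short sites are shown for Ncapg2, Ncapd2 and Smc2.
Top2a (chr11:99024190-99024439, minus strand): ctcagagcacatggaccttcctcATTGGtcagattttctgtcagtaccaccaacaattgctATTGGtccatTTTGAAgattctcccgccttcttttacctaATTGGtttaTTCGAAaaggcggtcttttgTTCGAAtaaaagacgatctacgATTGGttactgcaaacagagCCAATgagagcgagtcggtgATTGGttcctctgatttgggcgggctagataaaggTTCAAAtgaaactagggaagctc
Ncapg (chr5:45669829-45669918, plus strand): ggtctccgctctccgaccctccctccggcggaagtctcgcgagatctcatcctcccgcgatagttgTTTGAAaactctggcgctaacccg
Ncaph2 (chr15:89355629-89355718, plus strand): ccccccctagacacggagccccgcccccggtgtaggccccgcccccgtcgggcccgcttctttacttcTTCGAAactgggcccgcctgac
Ncaph (chr2:127133955-127134044, minus strand): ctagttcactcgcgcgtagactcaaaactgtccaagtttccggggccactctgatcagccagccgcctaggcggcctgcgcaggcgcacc
Top2b (chr14:16365066-16365178, plus strand): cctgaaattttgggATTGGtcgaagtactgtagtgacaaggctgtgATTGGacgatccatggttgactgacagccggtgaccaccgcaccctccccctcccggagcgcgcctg
Ncapg2 (chr12:116405406-116405435, plus strand): tacgcgggtgtgTTTGAAtctggtccgagc
Ncapd2 (chr6:125191692-125191721, minus strand): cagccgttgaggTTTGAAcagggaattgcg
Smc2 (chr4:52439066-52439095, plus strand): gctttccatgTTCAAAacggtatagtctcc

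A CHR match was found in 7 of the 10 windows, which belong to 7 different genes, beside 19.2% of all 32817 promoter windows. Top2a held 4 CHR matches and 6 CCAAT matches. Its nearest pair to the start was a CHR match beginning 23 bases before the start and a CCAAT match beginning 58 bases before it, 35 bases apart. The CHR match began 30 bases before the start in Ncapg, 22 in Ncaph2 and 18 in Ncapg2. In Ncapd2 it began 123 bases before the RefSeq start. That start lies inside the gene's annotated span, whose 5′ end is at 125191701. The distance to that end is therefore shorter, and 10 of the 30 bases shown for Ncapd2 lie within the span. Smc2 had a match 145 bases before and a second 27 bases after its start. The match of Ncapd3 lay 249 bases before the second of its starts. That start is well inside the gene's annotated span, and the window of the first start held no CHR match. The 30 bases shown for Ncapg2, with its CHR match, also lie within that gene's annotated span. A CCAAT match was found in 5 of the 10 windows, beside 37.4% of all windows, so its count lay near that share. A CHR and a CCAAT match occurred in the same window, at any distance, in 4 windows. These were the windows of Smc2, Ncapg, Ncapd2 and Top2a, beside 7.51% of all windows. Top2b had 2 CCAAT matches and no CHR match.

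An E2F core searched on both strands as the word TTCCCGC, the word TTGGCGC, the word TTCGCGC and the word TTGCCGC, was found in 5 of the 10 windows, beside 9.57% of all windows, in Ncaph, Ncapg, Ncapd2, Ncapg2 and Ncapd3. E2F factors drive genes of the G1 to S transition. A forkhead core (TAAACA, both strands) was found in 2 windows, those of Ncapd3 and Top2b, beside 13.4% of all windows. None of the motif words overlapped another in these windows. The matches describe these letters in these windows and do not show binding.

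**Figure D1:**
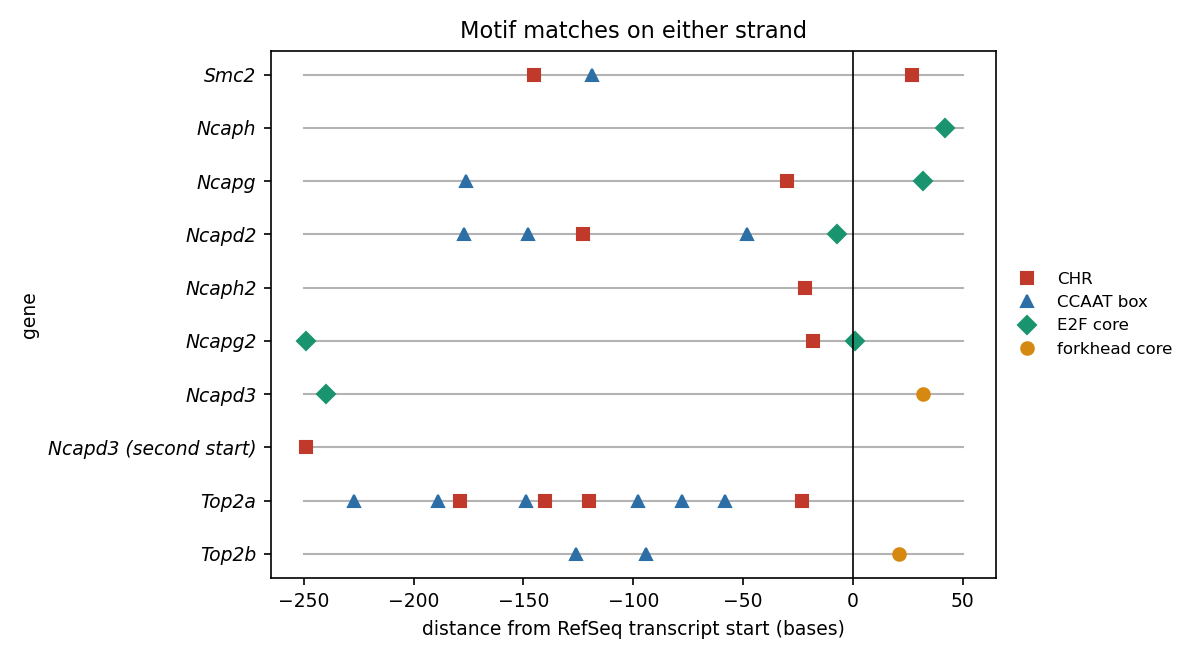
Positions of motif matches, as distance in bases from the RefSeq transcript start (vertical line), for the 10 windows of 9 genes; symbols mark the first base of a CHR, CCAAT, E2F or forkhead match on either strand. Top2a holds 4 CHR and 6 CCAAT matches, and Top2b holds 2 CCAAT matches and no CHR match.

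The transgenic library held 17856653 reads in genes and the WT library 17543705. Values are given as reads and as CPM, reads scaled by the authors to a fixed library total. Ratios are transgenic over WT, with exact 95% intervals that cover counting error only, since reads were not tagged as single molecules and variation from embryo to embryo is not measured. The mouse Foxm1 gene had 1289 against 1139 reads, a ratio of 1.11 (1.03 to 1.21). Whether transcripts of the FOXM1 allele are counted to it is not known. The libraries differ in sex content: Xist had 9628 reads in the transgenic and 5 in the WT library, and 4 Y-linked genes (Eif2s3y, Ddx3y, Kdm5d, Uty) had 202 to 1266 reads in the WT library and 0 in the other. The 10 genes are on autosomes, and a difference of genotype cannot be told apart from one of sex. In RNA from whole tissue, fewer cells of a type and less RNA per cell cannot be told apart either.

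All 10 genes were well above the minimum of a mean of 1 CPM used for comparisons over all genes, with 548 to 12473 reads over both libraries. Of the 10, 9 had ratios above 1, where the median log2 ratio of all genes tested was -0.01. At least 1.2-fold higher in the transgenic library were 5: Smc4, Ncaph, Top2a, Ncapg and Smc2. Among all 14557 genes tested, 11.5% were at least 1.2-fold higher. With a mean of at least 10 CPM, a level that all 10 genes exceed, 6.63% were. None of the 10 was at least 1.2-fold lower, beside 15.7% of all genes tested. With a mean of at least 10 CPM, 796 of 10138 genes were, so among 10 genes a count of 0 lies near that share. The interval lay wholly above 1 for 7 of the 10, beside 16.5% of all genes tested, and spanned 1 for Ncapg2, Ncapd3 and Top2b. With a mean of at least 10 CPM, 20.2% of genes had intervals above 1. None of the 10 intervals lay wholly below 1, beside 19.2% of all genes tested and 2138 of the 10138 with a mean of at least 10 CPM. None reached 1.5-fold, beside 2.53% of all genes tested, and none is marked as significant in the authors' deposited table, where the smallest fold of a marked gene is 1.5. The median log2 ratio of the 10 genes was 0.25, and that of all genes tested was -0.01.

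**Figure D2:**
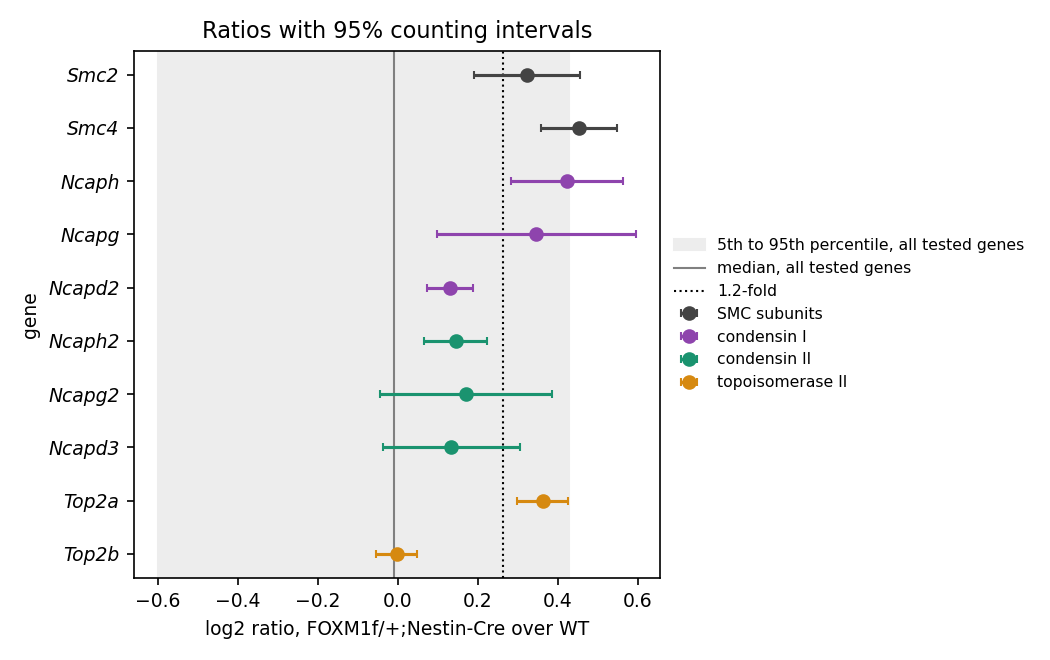
Log2 ratio of the transgenic over the WT library for each gene (points) with 95% counting intervals (bars), coloured by complex; grey shading spans the 5th to the 95th percentile of all tested genes (-0.60 to 0.43) and the dotted line is 1.2-fold. Smc2, Smc4, Ncaph, Ncapg and Top2a lie right of the dotted line, the condensin II subunits and Ncapd2 lie left of it, and Top2b lies at 0.

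The arms of the ring were higher in the transgenic library. Smc4 (ENSMUSG00000034349, chromosome 3, 69004738 to 69034623, plus strand) had 2138 reads in the transgenic and 1534 in the WT library, 119.7 against 87.4 CPM. Its ratio of 1.37 (1.28 to 1.46) was the highest of the 10 and exceeded the ratios of 95.5% of all genes tested. The Poisson intervals of the levels, 115 to 125 and 83.1 to 91.9 CPM, did not overlap. Smc2 (ENSMUSG00000028312, chromosome 4, 52439243 to 52488260, plus strand) had 1058 against 831 reads, 59.2 against 47.4 CPM, a ratio of 1.25 (1.14 to 1.37). Its levels did not overlap either, at 55.7 to 62.9 against 44.2 to 50.7 CPM. The proteins pair 1 to 1, which RNA levels do not measure. Smc4 gave 2.02 reads per read of Smc2 in the transgenic and 1.85 in the WT library (2.12 and 1.94 per kilobase of annotated exon). The quotient of these, 1.09, had an interval that spanned 1 (0.977 to 1.23), so a difference between the changes of the arms was not detectable at this depth. The annotation places the microRNA genes Mir15b and Mir16-2 inside Smc4, on the same strand and outside its exons.

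The non-SMC subunits of condensin I did not differ to the same degree. Ncaph, the kleisin (ENSMUSG00000034906, chromosome 2, 127103809 to 127133954, minus strand), had 990 against 726 reads, 55.4 against 41.4 CPM, a ratio of 1.34 (1.22 to 1.48). Ncapg, a HEAT-repeat subunit (ENSMUSG00000015880, chromosome 5, 45669919 to 45700546, plus strand), had 309 against 239 reads, 17.3 against 13.6 CPM, a ratio of 1.27 (1.07 to 1.51). It is the least read of the 10 and has the widest interval, and its Poisson intervals overlap slightly, at 15.4 to 19.3 and 11.9 to 15.5 CPM. Ncapd2, the other HEAT-repeat subunit (ENSMUSG00000038252, chromosome 6, 125168007 to 125191701, minus strand), had 5133 against 4608 reads, 287 against 263 CPM, a ratio of 1.09 (1.05 to 1.14). Ncapd2 was thus the condensin I gene with the most reads and the smallest difference, at percentile 75.5 of all genes tested, against percentiles 94.9 for Ncaph and 92.7 for Ncapg.

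Partners were also set against Ncapd2. It had the lowest ratio of the condensin subunits, so the quotient of any partner over it lies above 1 in advance. The quotients give the size of that gap and are no separate support. Reads of Smc4 per read of Ncapd2 were 0.417 in the transgenic and 0.333 in the WT library, a quotient of 1.25 (1.16 to 1.35). The quotient was 1.22 (1.10 to 1.36) for Ncaph and 1.14 (1.03 to 1.26) for Smc2. For Ncapg it was 1.16 (0.972 to 1.39), an interval that spans 1. The annotation places Scarna10, a small Cajal body RNA gene (chromosome 6, 125186359 to 125186683), on the same strand within Ncapd2, overlapping an annotated Ncapd2 exon. How reads of that stretch were assigned is not recorded in the sources used here, and their part in the Ncapd2 value was not tested. The 3′ part of Ncapg overlaps exons of Lcorl on the opposite strand, and Lcorl had 632 against 554 reads. Reads from such shared stretches are uncertain where the counting did not use strand.

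Ratios of the condensin II subunits were 1.10 to 1.12. Ncaph2, its kleisin (ENSMUSG00000008690, chromosome 15, 89355719 to 89372826, plus strand), had 2709 against 2408 reads, 152 against 137 CPM, a ratio of 1.11 (1.05 to 1.17). Ncapg2 (ENSMUSG00000042029, chromosome 12, 116405402 to 116463731, plus strand) had 387 against 338 reads, 21.7 against 19.3 CPM, a ratio of 1.12 (0.970 to 1.31). Ncapd3 (ENSMUSG00000035024, chromosome 9, 27030175 to 27095315, plus strand) had 594 against 532 reads, 33.3 against 30.3 CPM, a ratio of 1.10 (0.974 to 1.24). The Poisson intervals of Ncapg2 overlapped between the libraries, at 19.6 to 23.9 and 17.3 to 21.4 CPM, and so did those of Ncapd3, at 30.6 to 36.0 and 27.8 to 33.0 CPM. A difference in these HEAT-repeat subunits was not detectable at this depth, and increases up to 1.31-fold and 1.24-fold lie inside their intervals. The 3′ end of Ncaph2 overlaps exons of Sco2 and Tymp on the opposite strand, and Tymp had 35 against 45 reads.

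Summed over the 3 non-SMC subunits, condensin I had 6432 against 5573 reads, a ratio of 1.13 (1.09 to 1.18), and condensin II 3690 against 3278, a ratio of 1.11 (1.05 to 1.16). Reads of condensin I per read of condensin II were 1.74 and 1.70, a quotient of 1.03 (0.966 to 1.09), so the sums did not separate the complexes. The condensin I sum is mostly Ncapd2. In the pair Ncaph and Ncapg alone the ratio was 1.32 (1.22 to 1.44), and set against Ncapg2 and Ncapd3 the quotient became 1.19 (1.05 to 1.35). Leaving out both HEAT-repeat D subunits, Ncapd2 and Ncapd3, also gave 1.19 (1.08 to 1.32). These subsets were chosen after the values were seen.

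Counterpart subunits were also compared one by one. Relative to the kleisin of condensin II, that of condensin I was higher in the transgenic library. Ncaph made up 26.8% of the kleisin reads in the transgenic library (25.3 to 28.2, exact Clopper-Pearson) and 23.2% in the WT library (21.7 to 24.7). The quotient of Ncaph over Ncaph2 was 1.21 (1.08 to 1.36). For Ncapg over Ncapg2 the quotient was 1.13 (0.898 to 1.42), which spans 1 and is wide because both genes have few reads. For Ncapd2 over Ncapd3 it was 0.998 (0.880 to 1.13), with Ncapd2 making up 89.6% of the D subunit reads in both libraries.

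The topoisomerases differed from each other. Top2a (ENSMUSG00000020914, chromosome 11, 98992943 to 99024189, minus strand) was counted at 4660 against 3561 reads, and its log2 ratio was 0.36 (0.30 to 0.43). Its ratio exceeded those of 93.3% of all genes tested. Top2b (ENSMUSG00000017485, chromosome 14, 16365179 to 16435462, plus strand) had 6285 against 6188 reads, 352 against 353 CPM, a ratio of 0.998 (0.963 to 1.03). Top2b has the most reads of the 10, so its interval is narrow, from -3.67% to 3.37% as a percent difference from the WT library. Under other scalings its ratio was 1.01 or 1.02, so its direction is not determined. Top2a made up 42.6% (41.6 to 43.5) of the topoisomerase II reads in the transgenic library and 36.5% (35.6 to 37.5) in the WT library. The quotient of Top2a over Top2b was 1.29 (1.22 to 1.36), and it does not depend on the scaling of the libraries. An annotated small nucleolar RNA gene, Gm23451, overlaps a Top2a exon on the same strand. The end of Top2b overlaps Rarb exons on the opposite strand, and Rarb had 28 against 66 reads, few beside those of Top2b.

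Levels can be compared between genes only per length, here as CPM per kilobase of annotated exon. On this scale Ncapd2 was highest, at 45.9 in the transgenic and 41.9 in the WT library, followed by the kleisin Ncaph2 at 36.1 and 32.7. Top2a followed at 28.9 against 22.5, then Top2b at 24.1 in both libraries. Smc4 stood at 23.0 against 16.8, Ncaph at 12.9 against 9.61 and Smc2 at 10.8 against 8.65. Ncapd3 was lower at 4.21 against 3.84, and the G subunits were lowest, with Ncapg at 2.45 against 1.93 and Ncapg2 at 2.18 against 1.94. Subunits that meet in one complex thus differed widely in RNA: Ncapg stood at 0.0534 times the level of Ncapd2 in the transgenic and 0.0460 times in the WT library. Ncapd2 also exceeded its condensin II counterpart Ncapd3 10.9-fold in both libraries. The order of Top2a and Top2b changed sides, with Top2a over Top2b at 1.202 in the transgenic and 0.933 in the WT library. That crossing rests on the length used, since Top2b has 14.6 kb of annotated exons and a principal protein-coding transcript of 10.3 kb. Per kilobase of the principal transcript, Top2a exceeded Top2b in both libraries, at 1.47 and 1.14. By that length Ncapd2 was again highest, and Top2a exceeded Ncaph2 in the transgenic library (49.98 against 45.98 CPM per kilobase) and not in the WT library (38.9 against 41.6). Ncapg and Ncapg2 lay close to each other by either length, at quotients of 0.894 to 1.12. Per kilobase of the principal transcript, Ncapg stood at 0.0753 times the level of Ncapd2 in the transgenic and 0.0648 times in the WT library.

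**Figure D3:**
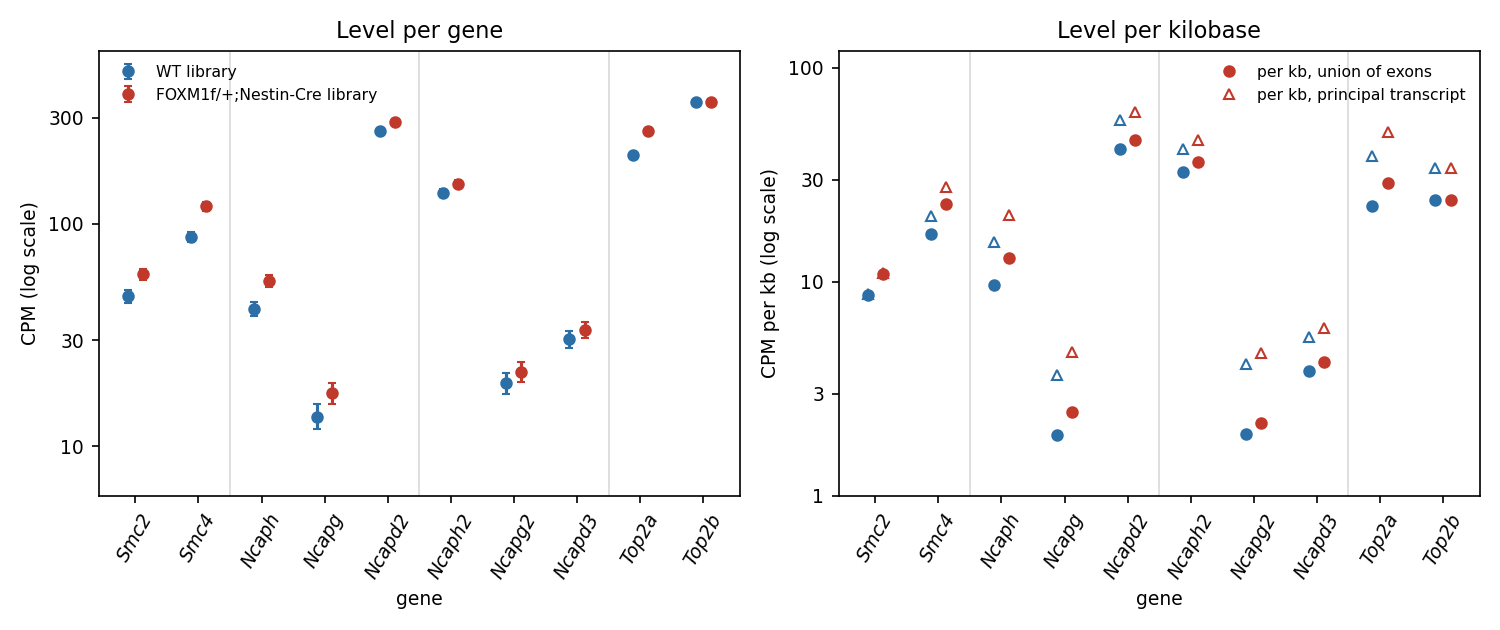
Left, CPM of each gene in the WT (blue) and the transgenic (red) library with 95% Poisson intervals; right, CPM per kilobase of all annotated exons (filled circles) or of the principal transcript (open triangles), all on log axes. Ncapd2 and Ncaph2 stand well above the G subunits and Ncapd3 by either length, and the Top2b points of both libraries coincide.

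**Figure D4:**
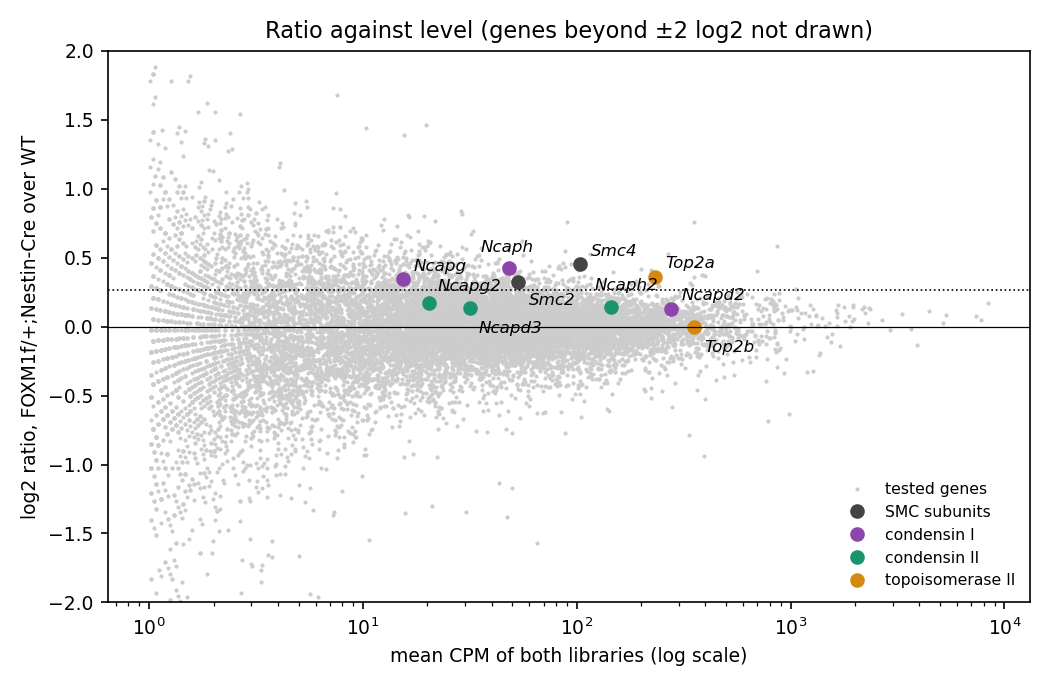
Log2 ratio against mean CPM (log axis) for tested genes (grey) and the 10 genes (coloured by complex); the dotted line is 1.2-fold. The grey cloud is wide at a few CPM and narrow at the level of Top2a and Smc4, which lie near its upper edge, while Top2b lies at its centre.

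Genes that act beside condensin were read from lists, which like the 10 genes were chosen with earlier results of these data known. Their counts at 1.2-fold stand beside shares of 11.5% higher and 15.7% lower over all genes tested, and of 6.63% higher above a mean of 10 CPM. In the list of kinases and chromosome proteins that work with condensin in mitosis, 7 of 16 genes were at least 1.2-fold higher and none lower, with a median log2 ratio of 0.26. Its members with the highest mean CPM were Set, a histone chaperone, with a ratio of 1.03 (1.005 to 1.06), Mki67, which coats mitotic chromosomes, with 1.197 (1.14 to 1.26), and Akap8, a chromosome-binding anchor protein, with 0.994 (0.941 to 1.05). Among DNA replication genes 9 of 13 were at least 1.2-fold higher and none lower, with a median of 0.33. Among apical radial glia markers, genes of the dividing progenitors at the ventricle, 5 of 11 were at least 1.2-fold higher and none lower, with a median of 0.25. Smc4, Ncaph, Top2a and Ncapg, at 0.45, 0.42, 0.36 and 0.35, lay above all 3 medians. Smc2 at 0.32 lay above those of the mitotic and radial glia lists and below that of the replication genes. Ncapd2 at 0.13, the condensin II subunits at 0.13 to 0.17 and Top2b lay below all 3. These orders are of point values. The log2 intervals of Ncapg (0.10 to 0.59), Smc2 (0.19 to 0.46) and Ncapg2 (-0.04 to 0.38) held all 3 medians. Those of Ncaph, Top2a and Ncapd3 held some of them, so the order is not resolved for these genes.

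The other SMC complexes were read in the same way, beside the shares of 11.5% higher and 15.7% lower over all genes tested. With a mean of at least 10 CPM, 796 of 10138 genes were lower. Cohesin, which holds sister chromatids together, had 3 of 17 genes at least 1.2-fold higher and none lower, with a median log2 ratio of 0.13. Its ring subunits Smc1a, Smc3 and Rad21 had ratios of 1.07 (1.02 to 1.13), 1.09 (1.02 to 1.15) and 1.06 (1.02 to 1.11). The SMC5/6 complex of DNA repair had 1 of 6 higher and 1 lower, with a median of 0.01, and its counts in both directions lay near those shares. Among the other topoisomerases and their repair partners 3 of 8 were higher and none lower, with a median of 0.14. There Top1, which relaxes DNA through single-strand breaks, had 4504 against 3771 reads, a ratio of 1.17 (1.12 to 1.23), and Top3b had 1.003 (0.917 to 1.10). The interval of Smc4 lay above those of Smc1a and Smc3, while that of Smc2 overlapped that of Smc3.

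**Figure D5:**
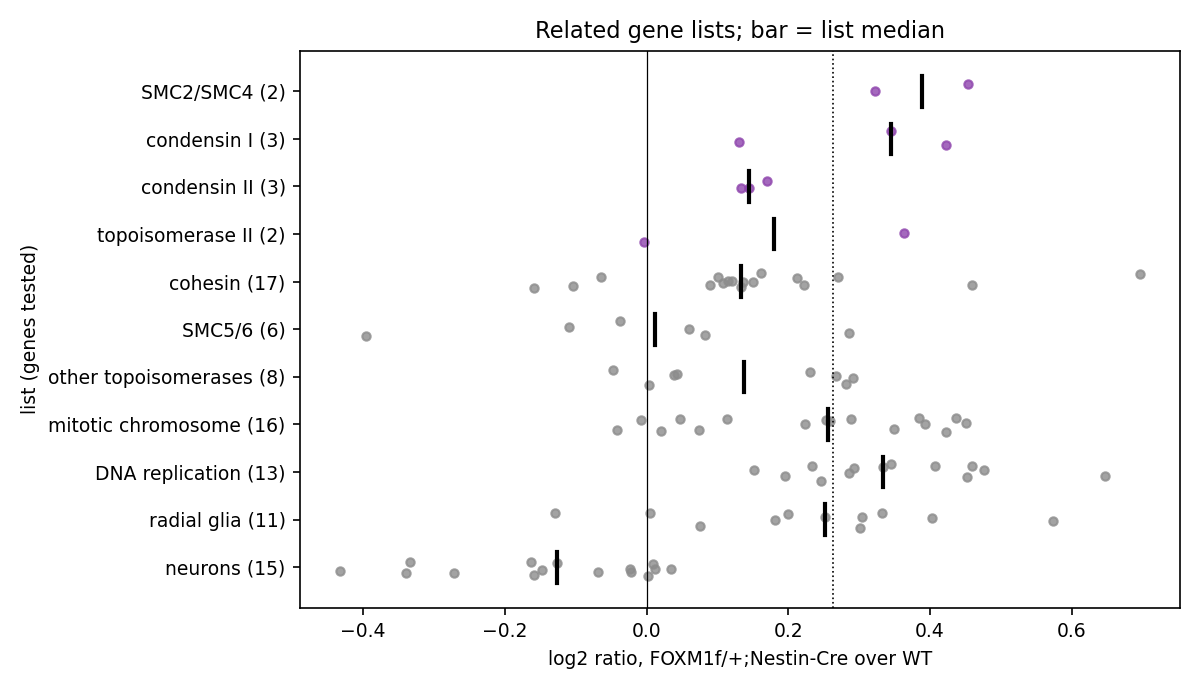
Log2 ratio of each tested gene (points) in the 4 groups described here (purple) and in related lists (grey), with the list median as a black bar and 1.2-fold as a dotted line; vertical scatter has no meaning. Condensin II sits near the cohesin median of 0.13, Smc4 at 0.45 lies above the replication median of 0.33 and Smc2 at 0.32 just below it, and the neuron median is -0.13.

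Markers of other cell types differed in both directions, and their counts stand beside 11.5% higher and 15.7% lower over all genes tested. Postmitotic neuron markers were detected in full and had 0 of 15 genes at least 1.2-fold higher and 4 lower, a median log2 ratio of -0.13, and summed levels of 8417 CPM (transgenic) and 8999 CPM (WT). All 11 radial glia markers were detected, with summed levels of 2514 and 2058 CPM. The erythroid markers, of blood cells that also divide at this age, had 6 of 10 genes at least 1.2-fold higher, none lower, none at 0 reads, and summed levels of 1185 and 738 CPM. They did not move evenly, with log2 ratios from -0.12 to 2.65. Those with the highest mean CPM, Hba-a1, Hbb-bs and Hbb-y, had ratios of 1.70, 1.29 and 6.29. Choroid plexus markers summed to 24.2 against 704 CPM, with 4 of the 5 tested lower. Endothelial markers summed to 153 against 173 CPM and microglia markers to 44.5 against 54.3 CPM, with 2 of 8 and 5 of 8 lower and none higher. The part of these cell types in the values of the 10 genes was not tested.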

How the data were processed

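Per the file headers, the deposited table pairs raw read counts with normalized values, in 1 column each per genotype. The submitters' processing notes name Bowtie2 2.2.3, TopHat2 2.0.12, HTSeq 0.6.0 and mm9, while the table's coordinates of all 10 genes equal those of GENCODE M21 on GRCm38. The strand setting and the annotation release were not given in the sources used here. The authors' normalized values are CPM, each a count times a constant per column, over 17859653 and 17547268 reads. The deposited fold change is the ratio of these columns, the deposited log2 column its logarithm, and the deposited p-values, which compare 1 column with 1 column, were not used.

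With 1 column per genotype no test across replicates was run. Ratios were computed from the counts at these depths with exact conditional Clopper-Pearson intervals, levels with exact Poisson intervals, and quotients of ratios with exact conditional odds-ratio intervals, all at 95%. Genes count as tested where their mean is at least 1 CPM. Alternatives were TMM and RLE scaling, other folds and other expression minimums. The 10 genes, the lists and the threshold of 1.2-fold were chosen with earlier results of these data known. All 10 genes are named, and of each list at most 3 with the highest mean CPM; others are said to be chosen after their values were seen. Exon lengths and overlaps come from GENCODE M21 and promoters from RefSeq. The procedure was tested on simulated Poisson counts. These hold no variation between embryos, so the test checks the computation and says nothing of that variation. Python 3.11.15, NumPy 2.4.6, pandas 2.3.3, SciPy 1.17.1, Matplotlib 3.10.9, R 4.3.3 and edgeR 4.0.16 were used.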

Additional observations from a re-analysis of the deposited data

How the results depend on the processing

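TMM and RLE scaling moved the median log2 ratio of all genes tested by 0.02 and 0.03. Under both, the count of genes at least 1.2-fold higher stayed at 5 of 10, and all 20 ratios of single genes stayed inside the interval of the reported value, with Top2b at 1.01 and 1.02 instead of 0.998. With a fold of 1.5 the count was 0. The median log2 ratio of the 10 genes was 0.26 and 0.27 under these scalings, and 0.17 without Smc2, Smc4 and Top2b. Without the subunit with the most reads the summed ratio was 1.32 for condensin I, and the quotient of condensin I over condensin II was 1.19 both without Ncapd2 and Ncaph2 and without Ncapd2 and Ncapd3. These subsets and the principal transcript length were added after seeing the data. The share of all genes at least 1.2-fold higher was 18.2% without an expression minimum and 6.63% at a minimum of 10 CPM. Depth limits Ncapg, Ncapg2 and Ncapd3 most. No paired analysis was possible because the table has 1 column per genotype, and for the same reason no replicate could be left out.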

Other observations

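The following genes of the related lists were chosen after their values were seen, and differences between them were not tested. Sgo1, the shugoshin that protects centromeric cohesin, had 399 reads in the transgenic and 242 in the WT library, a ratio of 1.62 (1.38 to 1.91). Esco2, the acetyltransferase that fixes cohesin on replicated DNA, had 410 against 293 reads, a ratio of 1.37 (1.18 to 1.60), while its relative Esco1 had 351 against 286, a ratio of 1.21 (1.03 to 1.41). In the SMC5/6 complex, Smc5 had 880 against 709 reads, a ratio of 1.22 (1.10 to 1.35), and its subunit Nsmce3 had 352 against 455, 1.32-fold lower (1.14 to 1.52). Mcph1, which restrains condensin II, had 159 against 154 reads, a ratio of 1.01 (0.808 to 1.27).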
